A study of Mus musculus with 12 samples.

Results

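The genes described here are the developmental signalling genes of mouse skin: the Wnt, BMP and TGF-beta, Notch, Hedgehog, FGF, EGF receptor, PDGF and IGF families. They were chosen by gene symbol, through the name stems of these families, and Shh, Wif1 and Fgf18 were left out. In all, 94 of the 7902 genes in the deposited tables were members, measured through 131 of 10720 transcripts. Wnt genes made up 31 of the members, BMP and TGF-beta genes 20, Notch genes 10, FGF genes 9, IGF genes 8, and EGF receptor and PDGF genes 3 each, beside the Hedgehog genes. The other 5 (Bmp2k, Bmper, Fgfr1op, Igf2bp1 and Tgfbi) share a name stem without being a ligand, receptor or nuclear effector of the families. Family genes that the tables do not list were not analysed here.

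RNA was measured by bulk sequencing in 12 mouse skin libraries, 4 in each of 3 groups. The M+NSPCC1 group carried the skin ageing model and received the grape seed extract NSPCC1, the Model group carried the same ageing model, made with D-galactose and UVA/B light, and the Ctrl group was the control. D-galactose is a sugar that is given in excess to produce oxidative stress, and UVA/B is the ultraviolet part of sunlight. The strain, age, sex and number of mice, the doses, the treatment times and the site of the skin were not stated in the labels, nor is it said that each library is a mouse of its own. The p-values therefore measure the spread between libraries, part of which may be technical. The listed genes held 9717338 to 10952623 estimated counts in a library, which is part of the library and not its sequencing depth. Values below are CPM, counts scaled to a common library size by TMM, and, where levels of different genes are set side by side, FPKM, which also divides by transcript length.

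Wnt proteins are secreted ligands that bind Frizzled receptors and, in the branch that runs through beta-catenin, switch on genes through LEF and TCF factors in the nucleus. BMP and TGF-beta ligands act through paired receptor kinases and Smad proteins, Notch is a receptor cut at the membrane after it meets a Jagged or Delta ligand on a neighbouring cell, and Hedgehog signals relieve the receptor Patched and act through Gli factors. In skin these routes, with FGF and EGF receptor signals, are known for the growth, rest and regrowth of the hair follicle, where Wnt activity accompanies growth and BMP activity accompanies rest. Because whole skin was sequenced, fewer cells of a type and less RNA per cell cannot be told apart in any of the results.

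The promoters of 66 members were found in RefSeq (GRCm38.p6, the assembly of the mm10 build named in the submitters' processing notes), in 82 windows that run from 250 bases before to 50 bases after a transcript start. Those shown hold letters known for a factor of one of these pathways: the RBPJ letters GTGGGAA for the Notch targets Hes5 and Hey2 and for Lef1, the TCF/LEF letters CTTTGAT for the ligand Wnt11, the GLI letters CCACCCA for Fgf5, and the SMAD letters CAGACA for Tgfb2. Both strands were searched, and capitals mark the match, which reads as the reverse complement where it lies on the other strand.
Hes5 promoter, chr4:154960673-154960972, plus strand: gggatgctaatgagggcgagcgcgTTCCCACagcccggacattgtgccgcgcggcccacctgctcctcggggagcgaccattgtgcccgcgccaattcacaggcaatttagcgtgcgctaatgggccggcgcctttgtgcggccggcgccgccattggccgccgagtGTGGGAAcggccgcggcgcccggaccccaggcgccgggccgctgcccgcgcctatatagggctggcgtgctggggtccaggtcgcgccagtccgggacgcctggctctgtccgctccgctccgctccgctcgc
Hey2 promoter, chr10:30842734-30843033, minus strand: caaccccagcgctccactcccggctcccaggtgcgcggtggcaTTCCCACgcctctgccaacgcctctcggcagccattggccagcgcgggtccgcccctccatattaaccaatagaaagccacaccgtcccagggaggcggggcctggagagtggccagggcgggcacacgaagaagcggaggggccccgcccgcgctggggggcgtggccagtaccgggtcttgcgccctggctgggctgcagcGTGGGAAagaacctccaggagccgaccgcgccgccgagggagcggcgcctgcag
Lef1 promoter, chr3:131110047-131110346, plus strand: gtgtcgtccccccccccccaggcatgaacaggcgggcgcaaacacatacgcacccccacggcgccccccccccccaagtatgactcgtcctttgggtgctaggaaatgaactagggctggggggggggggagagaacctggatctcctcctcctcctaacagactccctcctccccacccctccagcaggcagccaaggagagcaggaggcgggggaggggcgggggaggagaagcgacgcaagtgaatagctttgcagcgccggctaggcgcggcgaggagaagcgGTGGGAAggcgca
Wnt11 promoter, chr7:98834862-98835161, plus strand: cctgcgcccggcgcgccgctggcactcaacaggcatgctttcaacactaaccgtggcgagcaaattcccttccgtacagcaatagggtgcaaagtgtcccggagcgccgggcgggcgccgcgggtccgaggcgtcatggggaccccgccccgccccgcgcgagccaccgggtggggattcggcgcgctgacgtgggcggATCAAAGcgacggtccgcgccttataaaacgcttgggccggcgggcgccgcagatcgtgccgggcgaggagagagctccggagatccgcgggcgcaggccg
Fgf5 promoter, chr5:98253934-98254233, plus strand: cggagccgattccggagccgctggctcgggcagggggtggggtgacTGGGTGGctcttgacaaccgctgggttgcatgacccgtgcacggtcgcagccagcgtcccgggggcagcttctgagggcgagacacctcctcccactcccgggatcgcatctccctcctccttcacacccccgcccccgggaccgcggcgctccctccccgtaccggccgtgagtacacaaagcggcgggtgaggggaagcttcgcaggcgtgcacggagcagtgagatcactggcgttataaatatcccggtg
Tgfb2 promoter, chr1:186705940-186706239, minus strand: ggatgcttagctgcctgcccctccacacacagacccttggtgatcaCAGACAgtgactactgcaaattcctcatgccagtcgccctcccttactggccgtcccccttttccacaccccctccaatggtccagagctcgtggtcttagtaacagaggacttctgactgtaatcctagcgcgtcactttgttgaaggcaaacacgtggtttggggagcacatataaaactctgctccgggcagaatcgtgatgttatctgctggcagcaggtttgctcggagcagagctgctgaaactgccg
Hes5 and Hey2 each held 2 RBPJ matches, at positions -226 and -83 and at -207 and -4. The start base is counted as 1 and no base as 0. Lef1 held 1 match at 38 in the window shown, which a second window from a nearby start shares. The RBPJ letters occurred in 8.54% of the 82 member windows (Hes5, Hey2, Lef1, Bmpr2, Smad5 and Igf2), in 5.87% of the windows of all genes in the tables and in 6.38% of all 32851 RefSeq windows. The TCF/LEF letters CTTTGAT or CTTTGAA, which share all but their last letter, occurred in 2.44% of member windows (Wnt11 and Igf1), in 6.22% of the windows of all genes in the tables and in 8.65% of all windows. For the GLI letters the shares were 6.1% of member windows, 10.2% of the windows of all genes in the tables and 9.3% of all windows. The SMAD letters lay in the windows of 8 of 21 matched members that were lower in Model than in Ctrl skin (Bmp5, Dll4, Fgf9, Fgf11, Fgf13, Igf2, Sfrp2 and Tgfb2) and of 1 of 44 that were higher (Lef1, in another window). As shares of windows these were 33.3% and 1.85%, beside 16.7% of the windows of all genes in the tables and 21% of all windows. The median GC content of these windows was 59% for the lower and 67.3% for the higher members. It was 60.3% for the windows of all genes in the tables and 52.7% for all windows. The part of GC content in the share of SMAD letters was not tested. A match describes the letters and does not show that a factor binds there.

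In Model against Ctrl skin, most signalling genes were higher in the model: 64 of 93 tested members were higher (68.8%) and 28 lower (30.1%) (edgeR quasi-likelihood fit, adjusted p under 0.05). Of all 7638 tested genes, 49.1% were higher and 41.4% lower, together 90.5%, so that passing the test is the rule in these tables and not a mark of the signalling genes. The median log2 fold change was 0.98 over the members and 0.25 over all tested genes; with DESeq2's size factors the medians were 0.81 and 0.08, and with whole-library depth 1.16 and 0.43, and 58 and 65 members were higher. No role described below had a median that changed sign under these 3 scalings. Igfbp4 did not pass, and Igf2bp1 was too low to test, with 0.297 to 0.932 CPM in Model and 0 to 0.331 CPM in Ctrl libraries. The libraries of Model and Ctrl did not overlap for 88 members (94.6%), against 83.1% of all tested genes. By family, Wnt, BMP, Notch, Hedgehog and EGF receptor members were mostly higher, FGF members were split, and PDGF and most IGF members were lower. Of Wnt members 74.2% were higher, and of BMP and TGF-beta and of Notch members 80% each, beside 68.8% of all members. EGF receptor and PDGF had 3 members each. Roles within a family differed, with medians of -2.12 for secreted Wnt modulators and 2.23 for Wnt cytoplasmic and nuclear genes. Those of the genes grouped by symbol as FGF ligands, among them the intracellular Fgf11 and Fgf13, and of FGF receptors were -1.47 and 1.92.

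**Figure D1:**
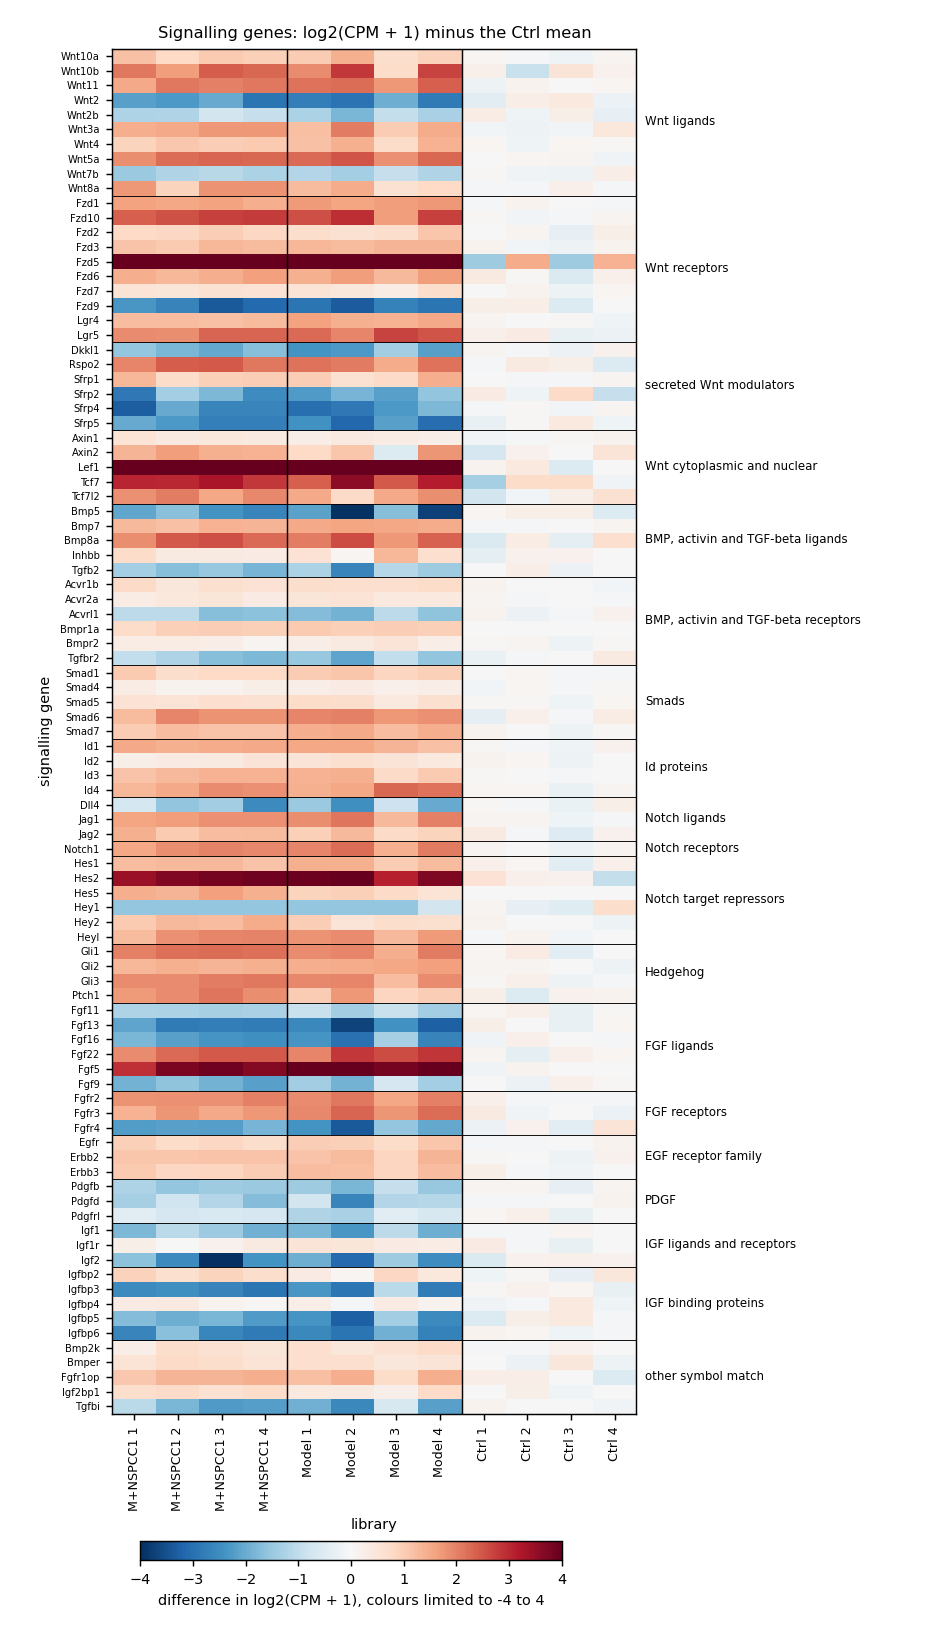
Each row is a signalling gene, 93 in all, and each column a library, with the colour giving log2(CPM + 1) minus the mean of the 4 Ctrl libraries, limited to -4 to 4. For 88 members the Model and Ctrl columns do not overlap, and the fold change against Ctrl has the same sign in M+NSPCC1 as in Model for every tested member.

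**Figure D2:**
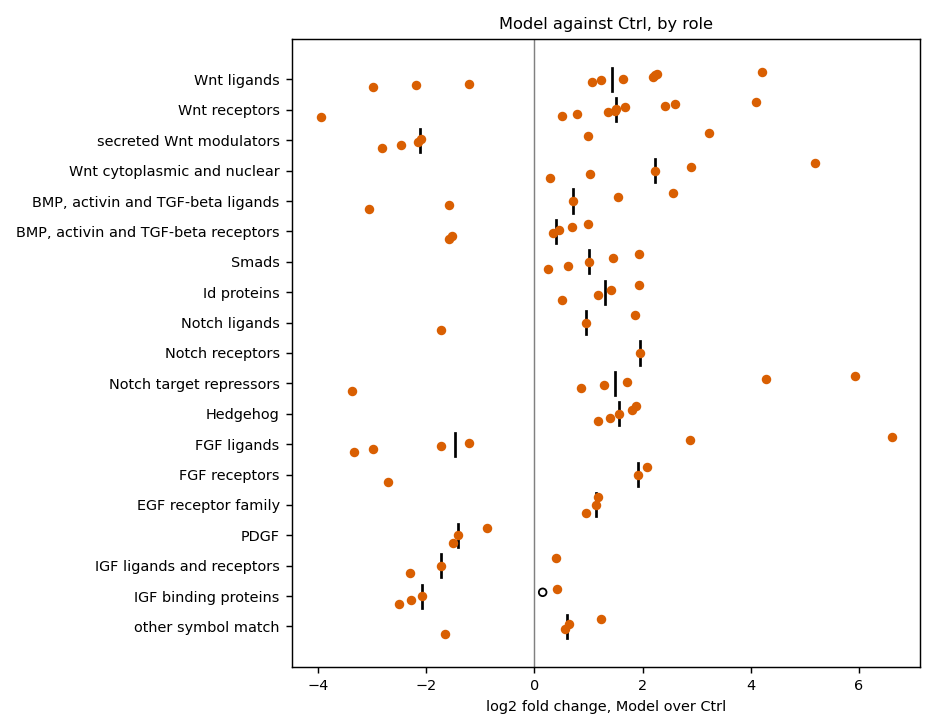
Each point is the log2 fold change of a tested member in Model over Ctrl, with the roles down the page and a black bar at the median of the role. Filled points passed the test and the open point is Igfbp4. Genes grouped by symbol as FGF ligands, PDGF and IGF genes and secreted Wnt modulators have medians below 0, and the other roles above 0.

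Interfollicular epidermis markers, which mark the labelled tissue, summed to 6676 to 9662 CPM in M+NSPCC1, 6070 to 10778 CPM in Model and 10851 to 14860 CPM in Ctrl libraries, with Krt2 at 0 in Ctrl. Markers of several cell types moved between Model and Ctrl skin. In that comparison 49.1% of all tested genes were higher and 41.4% lower, so that passing alone is not a mark of a cell type. Of the tested markers, 26 of 26 for hair shaft and inner root sheath, 15 of 15 for dividing cells, 14 of 14 for melanocytes and 9 of 11 for hair matrix, outer root sheath and follicle stem cells were higher in Model than in Ctrl skin. The dermal papilla was mixed, with 5 of 8 higher and 2 lower, as was the interfollicular epidermis, with 5 of 8 higher and 3 lower. The epidermis sum was lower in Model than in Ctrl libraries. Dermal papilla markers summed to 760 to 800 CPM in M+NSPCC1, 603 to 731 CPM in Model and 695 to 784 CPM in Ctrl libraries. Lower were 26 of 26 for skeletal muscle, 12 of 12 for fibroblasts, 11 of 12 for endothelium, 9 of 10 for smooth muscle and pericytes, 9 of 10 for adipocytes, 9 of 11 for Schwann cells and nerve, 9 of 12 for immune cells and 4 of 6 for the sebaceous gland. Summed hair shaft markers ran from 37865 to 67899 CPM in M+NSPCC1, from 55226 to 86838 CPM in Model and from 102 to 484 CPM in Ctrl libraries. The skeletal muscle sum ran from 14547 to 22387, from 6283 to 21154 and from 111264 to 119948 CPM in the same order of groups, with Myh7 at 0 throughout. Fibroblast markers summed to 7163 to 9300 CPM in M+NSPCC1, 4954 to 12724 CPM in Model and 16900 to 20384 CPM in Ctrl libraries. Model 3 stood apart from the other Model libraries, with the highest fibroblast, immune, endothelial and sebaceous sums and the lowest hair shaft, dividing cell and melanocyte sums. The part of these cell types in the changes of signalling genes was not tested.

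Among the Wnt ligands, 7 of 10 rose in Model skin (Wnt3a, Wnt4, Wnt5a, Wnt8a, Wnt10a, Wnt10b and Wnt11) and 3 fell (Wnt2, Wnt2b and Wnt7b). Wnt5a, a ligand best known for signalling without beta-catenin, averaged 187 ± 27.1 CPM in M+NSPCC1, 195 ± 36.2 CPM in Model and 40.6 ± 3.23 CPM in Ctrl skin (SD, n = 4 each), with lowest values of 148 CPM in M+NSPCC1 and 146 CPM in Model and a highest value of 43.4 CPM in Ctrl libraries. All 8 model libraries, with and without extract, lay far above the Ctrl libraries and overlapped one another. Its log2 fold change in Model against Ctrl was 2.26 (SE 0.15, edgeR adjusted p = 1.94e-07). Wnt10b, a ligand of the beta-catenin branch in the hair matrix, had 54.2, 39.8, 67.1 and 62.2 CPM in M+NSPCC1 libraries, 46, 89.4, 20.3 and 81.5 CPM in Model libraries and 13.8, 5.85, 17.4 and 13.4 CPM in Ctrl libraries. The lowest Model library, Model 3, lay just above the highest Ctrl library, and the log2 fold change was 2.23 with an SE of 0.44 (edgeR adjusted p = 0.000554). Wnt10a, its paralogue, averaged 38.3 ± 4.26 CPM in M+NSPCC1, 39.1 ± 8.59 CPM in Model and 18.7 ± 1.62 CPM in Ctrl skin (SD, n = 4 each), a log2 fold change of 1.07 in Model against Ctrl (SE 0.15, edgeR adjusted p = 5.48e-05).

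Wnt11, whose promoter is shown above, rose by 2.19 (SE 0.17, edgeR adjusted p = 5.32e-07) on the log2 scale, with 71 to 112 CPM in Model and 17.8 to 22.9 CPM in Ctrl libraries. Wnt3a and Wnt4 rose by 1.63 and 1.22 on the same scale. Wnt8a was near the limit of detection in Ctrl skin, with 52 counts over the Model and 2 counts over the Ctrl libraries, both in Ctrl 3. The depth-corrected ratio was 22.7 (95% interval 5.97 to 192, counting error only). In the other direction, Wnt2 had 4.03, 3.62, 4.65 and 2.04 CPM in M+NSPCC1 libraries, 2.37, 1.95, 4.86 and 2.24 CPM in Model libraries and 16, 26.4, 28.9 and 18.4 CPM in Ctrl libraries. The Ctrl libraries were all above the rest, and the log2 fold change in Model against Ctrl was -2.98 (SE 0.36, edgeR adjusted p = 1.53e-05). Wnt2b and Wnt7b had log2 fold changes of -2.19 and -1.21.

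Measured per transcript length, the order of the ligands differed between groups. In Model skin Wnt11 (25 ± 5.35 FPKM) and Wnt5a (21.8 ± 4.22 FPKM) stood highest, followed by Wnt4 (17.5 ± 3.94), Wnt10a (14 ± 3.16) and Wnt10b (12.9 ± 7.04; SD, n = 4 each); the ranges of the Model libraries overlapped between neighbours in this order. In Ctrl skin Wnt7b (7.99 ± 1.31 FPKM), Wnt4 (6.61 ± 0.589), Wnt10a (5.92 ± 0.591), Wnt2 (5.44 ± 1.6) and Wnt11 (5.25 ± 0.528; SD, n = 4 each) led, with ranges that overlapped between neighbours, and Wnt5a came sixth with 4.07 ± 0.321 FPKM, below Wnt11 in every Ctrl library. M+NSPCC1 skin had the same 5 ligands in the lead as Model skin, with Wnt11 at 23.2 ± 4.41 and Wnt5a at 21.6 ± 3.36 FPKM (SD, n = 4 each).

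**Figure D3:**
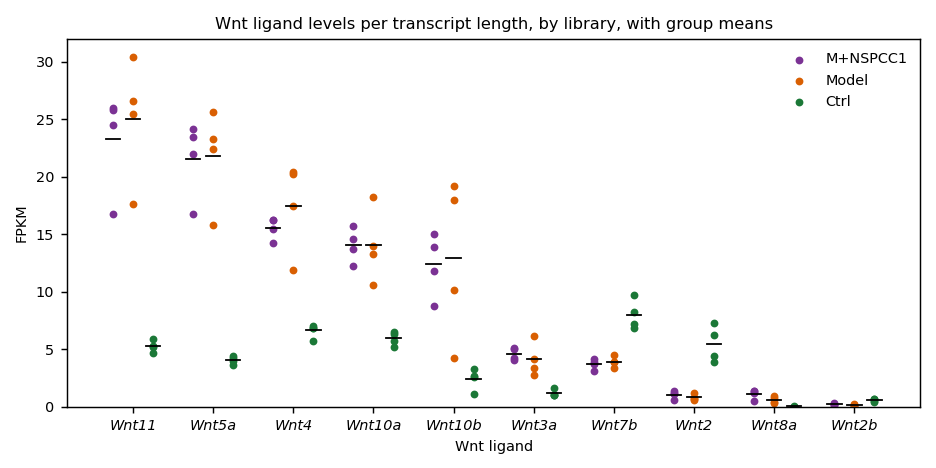
Points are the FPKM of each Wnt ligand in each library, grouped by M+NSPCC1, Model and Ctrl, with a bar at the group mean. Wnt11 and Wnt5a have the highest means in M+NSPCC1 and Model skin, and Wnt7b and Wnt2 are higher in Ctrl skin.

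Receptors of the Wnt family rose in 9 of 10 cases, and Fzd9 fell. The receptor Fzd10 had 118, 130, 148 and 157 CPM in M+NSPCC1 libraries, 133, 173, 70.2 and 150 CPM in Model libraries and 22.1, 20, 20.9 and 23.3 CPM in Ctrl libraries. Model 3 was the lowest library outside Ctrl skin and still lay well above every Ctrl library, and the log2 fold change in Model against Ctrl was 2.60 (SE 0.23, edgeR adjusted p = 1.48e-06). Fzd1, the Frizzled with the highest level per length, averaged 58.2 ± 2.51 FPKM in M+NSPCC1, 61.6 ± 3.73 FPKM in Model and 17.1 ± 1.01 FPKM in Ctrl skin (SD, n = 4 each) and rose by 1.67 (SE 0.07) on the log2 scale of CPM. Fzd5 had 57.3, 52, 75.8 and 64.3 CPM in M+NSPCC1 libraries, 49.5, 59.9, 56.4 and 52.3 CPM in Model libraries and 0, 6.51, 0 and 6.14 CPM in Ctrl libraries. The Ctrl libraries fell into values at 0 and values near 6 CPM, and the log2 fold change of 4.10 (SE 0.77, edgeR adjusted p = 0.000386) was 4.72 without Ctrl 2. Fzd9 went the other way, with 1.93, 1.3, 0.456 and 0.711 CPM in M+NSPCC1 libraries, 0.948, 0.464, 1.29 and 0.932 CPM in Model libraries and 16.3, 16.9, 9.22 and 14.1 CPM in Ctrl libraries, a log2 fold change of -3.95 in Model against Ctrl (SE 0.46, edgeR adjusted p = 1.15e-05).

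Lgr4 and Lgr5 are receptors for R-spondins, which strengthen Wnt signals, and Lgr5 marks stem cells of the lower hair follicle. Lgr5 had 65.9, 64.4, 88.9 and 89.3 CPM in M+NSPCC1 libraries, 84.3, 67.9, 115 and 101 CPM in Model libraries and 19.4, 21.6, 13.4 and 14.3 CPM in Ctrl libraries. Model 3 was the highest library, the model libraries were all above Ctrl, and the log2 fold change was 2.42 (SE 0.21, edgeR adjusted p = 1.28e-06). Lgr4 rose as well (SE 0.08, edgeR adjusted p = 5.04e-08), with 190 to 222 CPM in Model and 63.2 to 77.3 CPM in Ctrl libraries. The R-spondin Rspo2 averaged 6 ± 1.18 CPM in M+NSPCC1, 4.93 ± 1.19 CPM in Model and 0.519 ± 0.392 CPM in Ctrl skin (SD, n = 4 each), with a log2 fold change of 3.22 in Model against Ctrl (SE 0.60, edgeR adjusted p = 0.000358).

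Secreted Wnt modulators were the only Wnt role with a median below 0 (-2.12): Rspo2 and Sfrp1 rose, and Sfrp2, Sfrp4, Sfrp5 and Dkkl1 fell. The Sfrp genes encode decoys that bind Wnt proteins outside the cell. Sfrp1 had 306, 202, 232 and 239 CPM in M+NSPCC1 libraries, 237, 184, 204 and 330 CPM in Model libraries and 122, 117, 114 and 130 CPM in Ctrl libraries, a log2 fold change of 0.98 in Model against Ctrl (SE 0.17, edgeR adjusted p = 0.000264). Sfrp4 had 11.9, 30.3, 19.2 and 19.5 CPM in M+NSPCC1 libraries, 14.8, 16.3, 24.6 and 35.5 CPM in Model libraries and 121, 130, 117 and 136 CPM in Ctrl libraries. The opposite directions of Sfrp1 and Sfrp4 showed in every library, and Sfrp4 had a log2 fold change of -2.47 (SE 0.30, edgeR adjusted p = 1.69e-05). Sfrp2 and Sfrp5 had log2 fold changes of -2.14 (SE 0.41) and -2.82 (SE 0.29). Per length, Sfrp1 had the lowest mean of the 4 Sfrp genes in Ctrl skin, at 15.5 ± 1.06 FPKM, with libraries that overlapped those of Sfrp2 and Sfrp5, and the highest mean in Model skin, at 34.8 ± 10.1 FPKM (SD, n = 4 each).

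In the nucleus and cytoplasm all 5 Wnt members rose in Model skin, where with DESeq2's size factors Axin1 and Axin2 lost their calls. Lef1, the transcription factor through which beta-catenin acts in the hair matrix and dermal papilla, had 141, 200, 203 and 211 CPM in M+NSPCC1 libraries, 218, 255, 96 and 214 CPM in Model libraries and 5.85, 7.06, 3.22 and 5.17 CPM in Ctrl libraries. No library of the model came near the Ctrl range, and the log2 fold change was 5.20 (SE 0.34, edgeR adjusted p = 1.73e-07), the largest fitted value among the Wnt members in this comparison. All 3 Lef1 transcripts in the tables moved the same way. Tcf7 and Tcf7l2, of the same factor family, rose by 2.89 (SE 0.44) and 2.23 (SE 0.67). Axin2, a target gene of the pathway that also restrains it, had 21.1, 26.5, 22.1 and 21.2 CPM in M+NSPCC1 libraries, 14, 17.6, 4.86 and 28.1 CPM in Model libraries and 4.41, 8.6, 7.5 and 11.1 CPM in Ctrl libraries. Model 3 lay inside the Ctrl range and Model 4 was the highest of all libraries, and the log2 fold change of 1.03 (SE 0.42) passed narrowly (edgeR adjusted p = 0.0376). That call was lost with DESeq2's size factors (log2 fold change 0.85) and without Ctrl 1, Ctrl 2, Ctrl 3, Model 2 or Model 4 (log2 fold changes between 0.62 and 1.07). Its relative Axin1 rose by 0.29 (SE 0.08); with DESeq2's size factors its log2 fold change was 0.12 and it did not pass (edgeR adjusted p = 0.151).

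**Figure D4:**
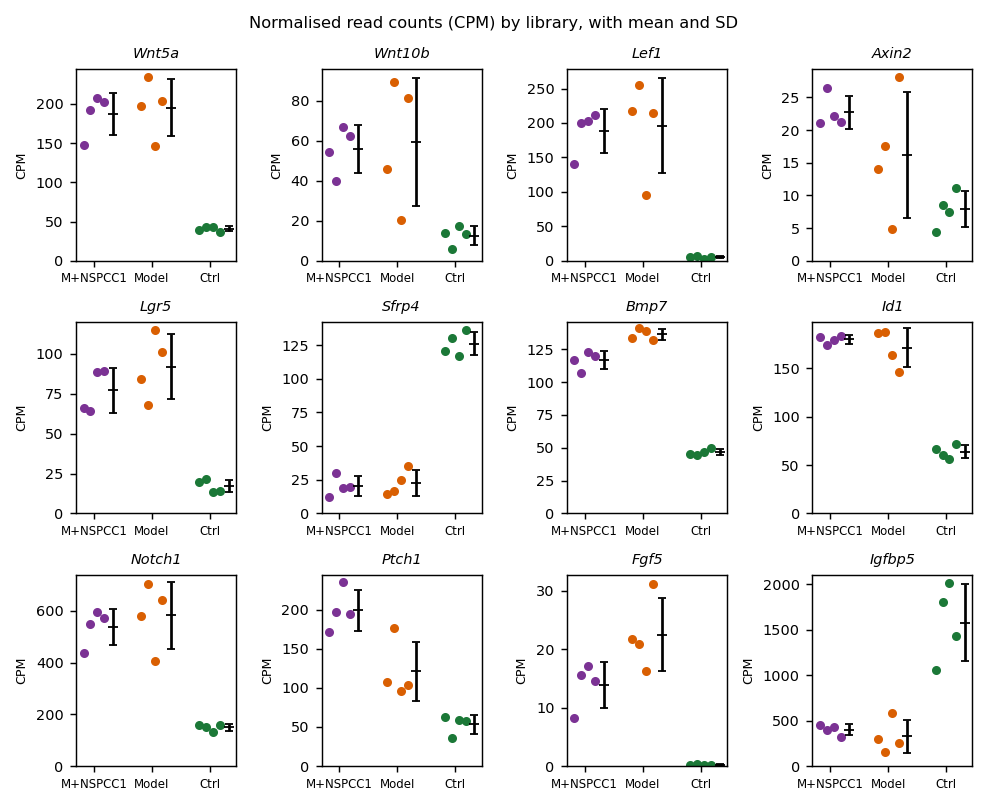
Points are the CPM of 12 signalling genes in each library, with M+NSPCC1 left, Model in the middle and Ctrl right, and the bars give the mean and SD of the 4 libraries. Sfrp4 and Igfbp5 are higher in Ctrl skin, the other 10 are higher in the model groups, Bmp7 is lower and Ptch1 mostly higher in M+NSPCC1 than in Model libraries, and Axin2 is scattered in Model. No gene passed the edgeR test between M+NSPCC1 and Model.

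Of 20 BMP and TGF-beta members 16 rose and 4 fell in Model skin; with DESeq2's size factors Bmpr2 and Smad4 did not pass. Among the ligands, Bmp7 averaged 117 ± 7.01 CPM in M+NSPCC1 (lowest 107), 136 ± 4.31 CPM in Model (132 to 141) and 46.7 ± 2.44 CPM in Ctrl skin (44.6 to 50.1; SD, n = 4 each). The libraries of the 3 groups did not overlap, though the difference between M+NSPCC1 and Model did not pass the edgeR test. The log2 fold change in Model against Ctrl was 1.54 (SE 0.07, edgeR adjusted p = 1.93e-08). Bmp8a rose by 2.57 (SE 0.40) and Inhbb, which encodes an activin and inhibin subunit, by 0.72 (SE 0.23). Bmp5 and Tgfb2 fell, with log2 fold changes of -3.06 (SE 0.70) and -1.58 (SE 0.29). Bmp5 averaged 3.43 ± 1.33 CPM in M+NSPCC1, 2.28 ± 2.29 CPM in Model and 19 ± 4.45 CPM in Ctrl skin (SD, n = 4 each); without Model 3 its log2 fold change was -3.77. Tgfb2, whose promoter is shown above, had 16.9, 13.1, 15.1 and 11.8 CPM in M+NSPCC1 libraries, 18.2, 6.4, 20.1 and 16.1 CPM in Model libraries and 45, 54.2, 38.1 and 44.6 CPM in Ctrl libraries, with the Ctrl libraries apart from all others.

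Receptors went both ways. The BMP and activin receptor genes Bmpr1a, Bmpr2, Acvr1b and Acvr2a rose, by 0.99, 0.34, 0.70 and 0.46 on the log2 scale, but with DESeq2's size factors Bmpr2 stood at 0.17 (edgeR adjusted p = 0.0935). The TGF-beta receptor Tgfbr2 and the endothelial receptor Acvrl1 fell, with log2 fold changes of -1.51 (SE 0.25) and -1.58 (SE 0.22). Bmpr1a averaged 345 ± 26.7 CPM in M+NSPCC1, 363 ± 13.2 CPM in Model and 183 ± 1.7 CPM in Ctrl skin, and Tgfbr2 306 ± 83.8, 285 ± 92.5 and 814 ± 155 CPM in the same order of groups (SD, n = 4 each). Summed endothelial markers, which moved with Acvrl1, ran from 396 to 495 CPM in M+NSPCC1, from 295 to 768 CPM in Model and from 1307 to 1547 CPM in Ctrl libraries, and their part in its change was not tested. All 5 Smads rose, and the largest log2 fold changes belonged to the inhibitory Smad6 (1.94, SE 0.19) and Smad7 (1.46, SE 0.10), while the transducers Smad1, Smad5 and Smad4 had smaller ones, of 0.61 for Smad5 and 0.26 for Smad4. With DESeq2's size factors Smad4 had a log2 fold change of 0.09 (edgeR adjusted p = 0.202) and did not pass. The Id genes, which encode inhibitors of helix-loop-helix factors and are classical BMP targets, rose in 4 of 4 cases. Id1 had 183, 174, 180 and 184 CPM in M+NSPCC1 libraries, 187, 188, 164 and 146 CPM in Model libraries and 66.3, 60.8, 56.6 and 72 CPM in Ctrl libraries, a clear gap with a log2 fold change of 1.42 (SE 0.10, edgeR adjusted p = 2.58e-07). Id4, Id3 and Id2 rose by 1.93, 1.18 and 0.52 on the log2 scale.

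Notch members rose in 8 of 10 cases in Model skin. The receptor Notch1 had 437, 550, 595 and 570 CPM in M+NSPCC1 libraries, 578, 704, 406 and 641 CPM in Model libraries and 160, 150, 130 and 160 CPM in Ctrl libraries, with a wide gap to Ctrl and a log2 fold change of 1.95 (SE 0.16, edgeR adjusted p = 9.25e-07). Its ligands Jag1 and Jag2 rose by 1.86 (SE 0.16) and 0.96 (SE 0.17), while Dll4, a ligand of endothelial cells, fell (log2 fold change -1.73, SE 0.47). Dll4 averaged 6.43 ± 3.63 CPM in M+NSPCC1, 5.7 ± 3.33 CPM in Model and 18.9 ± 2.87 CPM in Ctrl skin (SD, n = 4 each). Per length, Jag1 stood at 45 ± 10.9 FPKM in Model and 10.9 ± 1.11 FPKM in Ctrl skin, and Jag2 at 27 ± 4.59 and 12.3 ± 3.1 FPKM (SD, n = 4 each), so that Jag1 had the higher mean in Model skin and no clear lead in Ctrl skin.

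The Hes and Hey genes, grouped here by symbol, encode repressors, several of which Notch switches on. Of these genes, Hes1, Hes2, Hes5, Hey2 and Heyl rose and Hey1 fell. Hes2 is in the group by its symbol and is not read as a Notch target here. Hes1, the most abundant per length, averaged 114 ± 5.37 CPM in M+NSPCC1, 117 ± 14.2 CPM in Model and 48.3 ± 9.76 CPM in Ctrl skin (SD, n = 4 each), a log2 fold change of 1.28 in Model against Ctrl (SE 0.14, edgeR adjusted p = 7.93e-06). Hes2 had 27.3, 33, 35.9 and 37 CPM in M+NSPCC1 libraries, 38, 46.2, 21.4 and 33.8 CPM in Model libraries and 2.87, 1.99, 1.93 and 0.323 CPM in Ctrl libraries, with a log2 fold change of 4.28 (SE 0.42). Hes5 had no count in any Ctrl library, where 3 counts over the group mark the limit. With 1.74, 1.58, 2.1 and 1.69 CPM in M+NSPCC1 libraries and 0.853, 0.927, 0.694 and 0.466 CPM in Model libraries, it was at least 21.7-fold higher in M+NSPCC1 and at least 9.01-fold higher in Model than in Ctrl skin. Hey1 showed the reverse pattern, with 0 CPM in all M+NSPCC1 libraries, 0, 0, 0 and 0.746 CPM in Model libraries and 2.1, 1.32, 1.07 and 3.77 CPM in Ctrl libraries. It was at least 30.3-fold lower in M+NSPCC1 than in Ctrl skin; its call in Model against Ctrl (log2 fold change -3.38, edgeR adjusted p = 0.0202) was lost without Ctrl 4, and Model 4 held all counts of the Model group. Hey2 and Heyl rose by 0.86 (SE 0.20) and 1.71 (SE 0.17).

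Among the Hedgehog members, the receptor Ptch1, which is also a target of the pathway, and the factors Gli1, Gli2 and Gli3 rose in Model skin. Gli1, a target gene used as a readout of the pathway, had 136, 155, 161 and 155 CPM in M+NSPCC1 libraries, 127, 132, 92.3 and 143 CPM in Model libraries and 35, 41.5, 24.6 and 33.9 CPM in Ctrl libraries. The log2 fold change in Model against Ctrl was 1.87 (SE 0.16, edgeR adjusted p = 1.34e-06), and those of Gli3, Gli2 and Ptch1 were 1.81, 1.57 and 1.18. Ptch1 had 172, 197, 235 and 194 CPM in M+NSPCC1 libraries, 107, 177, 96.4 and 104 CPM in Model libraries and 62.3, 35.3, 59.2 and 57.1 CPM in Ctrl libraries, so that Model 2 alone of the Model libraries reached the M+NSPCC1 range.

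Genes grouped by symbol as FGF ligands went both ways. Fgf5, the factor that ends hair growth, had 8.25, 15.5, 17.1 and 14.6 CPM in M+NSPCC1 libraries, 21.7, 20.8, 16.2 and 31.2 CPM in Model libraries and 0.11, 0.331, 0.214 and 0.216 CPM in Ctrl libraries. It was barely detected in Ctrl skin, and its log2 fold change of 6.61 in Model against Ctrl (SE 0.39, edgeR adjusted p = 8.73e-08) was the largest fitted value among the members tested. Fgf22 rose by 2.88 (SE 0.25), with 17 to 32.4 CPM in Model and 2.54 to 4.29 CPM in Ctrl libraries. Fgf9, Fgf11, Fgf13 and Fgf16 fell, with log2 fold changes of -1.72, -1.21, -3.33 and -2.98. Fgf16 stood at -4.05 without Model 3. Fgf11, like Fgf13, encodes an FGF-like protein that stays inside the cell. Fgf13, an FGF-like protein that stays inside the cell, had 5.41, 2.88, 3.01 and 2.93 CPM in M+NSPCC1 libraries, 3.6, 1.11, 4.07 and 1.86 CPM in Model libraries and 31.4, 25.9, 21.3 and 28 CPM in Ctrl libraries, with no overlap between Ctrl and the rest. Of all genes in this group, the highest level per length was that of Fgf22 in Model skin (19.1 ± 4.93 FPKM). In Ctrl skin it was that of the intracellular Fgf13 (6.37 ± 1.07 FPKM), where Fgf22 had 2.32 ± 0.509 FPKM (SD, n = 4 each).

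Among the receptors, Fgfr2 and Fgfr3 rose by 1.92 (SE 0.12) and 2.08 (SE 0.17) and Fgfr4 fell (log2 fold change -2.70, SE 0.51). Fgfr2 averaged 158 ± 11.1 CPM in M+NSPCC1, 162 ± 25.9 CPM in Model and 42.7 ± 4.43 CPM in Ctrl skin, and Fgfr4 2.29 ± 0.427, 2.09 ± 1.46 and 13.6 ± 4.29 CPM in the same order of groups (SD, n = 4 each). The EGF receptor genes Egfr, Erbb2 and Erbb3, which drive keratinocyte growth, rose by 0.95 (SE 0.09), 1.17 (SE 0.11) and 1.14 (SE 0.11). Erbb3 had 196, 167, 172 and 189 CPM in M+NSPCC1 libraries, 222, 216, 170 and 223 CPM in Model libraries and 110, 89.2, 84.2 and 92.8 CPM in Ctrl libraries, with every model library above every Ctrl library.

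PDGF and IGF members, many of them expressed by cells of the dermis and vessels, were mostly lower in Model skin. Pdgfb, Pdgfd and Pdgfrl fell, with log2 fold changes of -1.42, -1.50 and -0.88 (SE 0.18, 0.45 and 0.20). The growth factor Igf1 had 80, 131, 102 and 73 CPM in M+NSPCC1 libraries, 77, 54.6, 135 and 70.9 CPM in Model libraries and 270, 270, 302 and 273 CPM in Ctrl libraries. The Ctrl libraries were close together and far above every other library, and the log2 fold change in Model against Ctrl was -1.73 (SE 0.26, edgeR adjusted p = 7.44e-05). Igf2 had a log2 fold change of -2.30 (SE 0.62); its exons overlap those of Gm49394 on the same strand, so reads of the pair may be shared. The receptor Igf1r rose by 0.40 (SE 0.12, edgeR adjusted p = 0.00964), but with DESeq2's size factors its log2 fold change was 0.23 and it did not pass.

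The IGF binding proteins, which hold IGFs in the tissue fluid, fell in 3 of 5 cases. Igfbp5 had 457, 392, 429 and 317 CPM in M+NSPCC1 libraries, 297, 159, 588 and 259 CPM in Model libraries and 1052, 1807, 2013 and 1436 CPM in Ctrl libraries, and Igfbp3 averaged 107 ± 15.4 CPM in M+NSPCC1, 158 ± 107 CPM in Model and 670 ± 91.1 CPM in Ctrl skin (SD, n = 4 each). Model 3 was the highest Model library for both. Igfbp3, Igfbp5 and Igfbp6 had log2 fold changes of -2.09 (SE 0.36), -2.28 (SE 0.35) and -2.50 (SE 0.28). Igfbp2 passed narrowly (log2 fold change 0.42, edgeR adjusted p = 0.0489) and lost its call with DESeq2's size factors (log2 fold change 0.25) and when any of Ctrl 1, Ctrl 2, Ctrl 3, Model 1, Model 3, Model 4 or a single M+NSPCC1 library was left out. Igfbp4 had a log2 fold change of 0.15 (95% interval -0.15 to 0.45, edgeR adjusted p = 0.296), and of 0.31 without Ctrl 3, where it passed. Of the members counted outside the families, Bmp2k, Bmper and Fgfr1op rose by 0.63, 0.57 and 1.23. Tgfbi, a matrix protein induced by TGF-beta, fell (log2 fold change -1.65, SE 0.39).

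Between M+NSPCC1 and Model skin, the contrast that carries the effect of the extract, no signalling gene passed the edgeR quasi-likelihood test. Of the members, 9 had an unadjusted p under 0.05 (9.68%, against 6.57% of all tested genes), and the smallest adjusted p was 0.472. Without Model 3 there were 22 (23.7%, against 16.2% of the 7708 genes then tested), of which again 0 passed, with a smallest edgeR adjusted p of 0.156. Of all 7638 genes, 0 passed (0.00%), and DESeq2 called 0 members and 73 of all genes (0.959% of those it tested). Log2 fold changes were positive for 44 members and negative for 49, with a median of -0.04. The 95% interval lay within a 2-fold change for 70 members and within a 1.5-fold change for 44, so that for the other 23 a 2-fold difference in at least one direction lay within the interval. M+NSPCC1 and Model libraries did not overlap for 6 members (6.45%, against 4.19% of all genes): Hes5, Hey2 and Axin1 with M+NSPCC1 above, and Bmp7, Gli2 and Lgr4 with M+NSPCC1 below.

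Lgr4 had the smallest p, with 171, 169, 162 and 173 CPM in M+NSPCC1 libraries and 222, 192, 190 and 209 CPM in Model libraries, a log2 fold change of -0.27 (95% interval -0.44 to -0.10). Bmp7, given above, had a log2 fold change of -0.23 (-0.37 to -0.08; edgeR adjusted p = 0.486). The inhibitory Smad7 had 43.6, 51.6, 48 and 48.5 CPM in M+NSPCC1 libraries and 60.6, 62.9, 51.3 and 60.6 CPM in Model libraries, with a log2 fold change of -0.30 (-0.51 to -0.08). For Hes5 the log2 fold change was 1.26 (0.40 to 2.11; edgeR adjusted p = 0.605), on 78 counts over the M+NSPCC1 and 31 counts over the Model libraries. Hey2 had 8.53, 10.5, 10 and 11.9 CPM in M+NSPCC1 libraries and 8.25, 5.66, 6.64 and 6.34 CPM in Model libraries, a log2 fold change of 0.61 (0.17 to 1.04). Of the other Notch members, Notch1 had a log2 fold change of -0.11 (-0.46 to 0.23) and Hes1 of -0.04 (-0.35 to 0.26).

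Ptch1 had a log2 fold change of 0.72 (0.25 to 1.19; edgeR adjusted p = 0.532), and of 0.97 without Model 2. The Gli factors had values of 0.29 for Gli1, 0.21 for Gli3 and -0.16 for Gli2. Fgf5 had a log2 fold change of -0.70 (-1.27 to -0.12) and Fgfr3 of -0.47 (-0.82 to -0.13), Fgfr3 with 151 to 199 CPM in M+NSPCC1 and 198 to 291 CPM in Model libraries, which overlap. Fgf9 had the most negative value of the members with counts in both groups above the detection limit, -1.22 (-2.23 to -0.21), on 0.355 to 1.02 CPM in M+NSPCC1 and 0.649 to 2.88 CPM in Model libraries. Some of the Wnt members described above had values of -0.06 for Wnt5a (-0.37 to 0.25), -0.05 for Lef1 (-0.64 to 0.54), 0.07 for Fzd10 (-0.40 to 0.54), -0.09 for Wnt10b (-0.99 to 0.81), 0.33 for Wnt2 (-0.44 to 1.10) and 0.82 for Wnt8a (-0.51 to 2.16). Axin2 had 0.49 (-0.41 to 1.40).

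**Figure D5:**
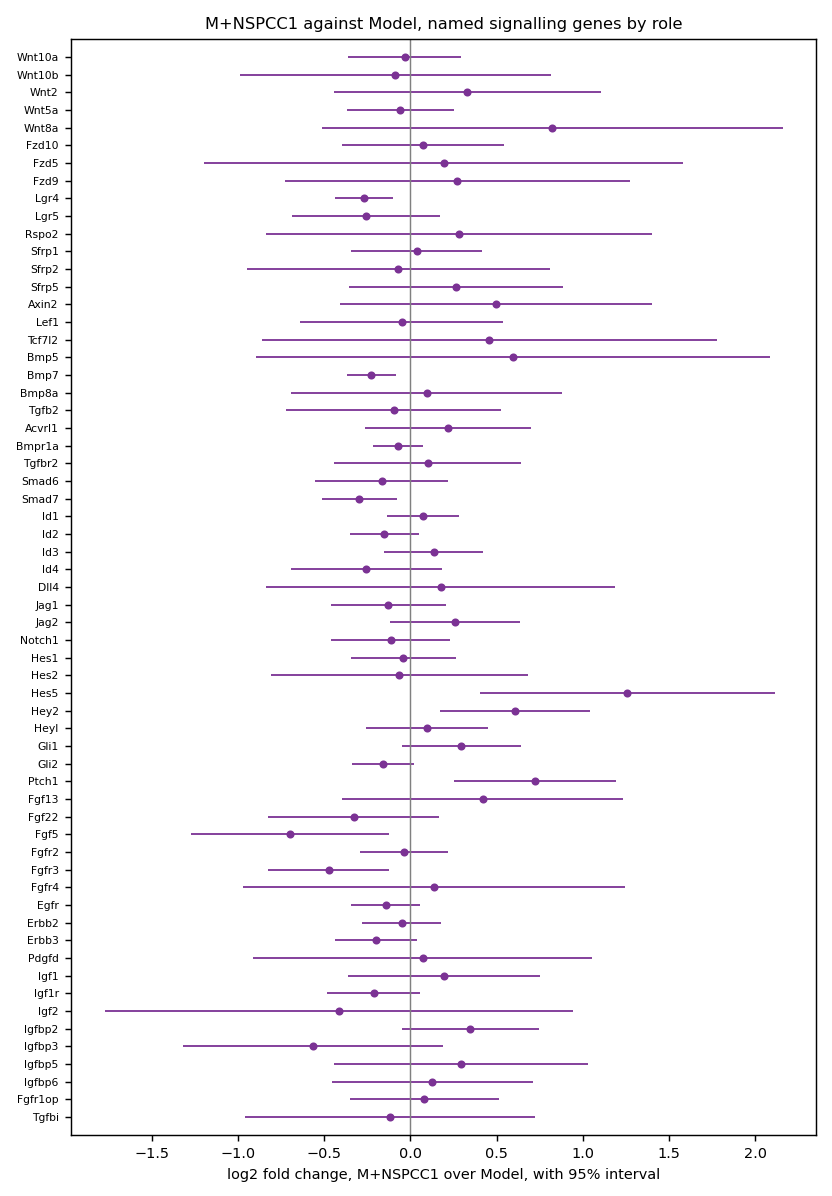
Each point is the log2 fold change of a named member in M+NSPCC1 over Model with its 95% interval, ordered by role. The interval holds 0 for 53 of the 61 genes drawn, and not every named member is drawn: Hey1, at 0 in M+NSPCC1 skin, is among those left out.

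Set against Ctrl, M+NSPCC1 skin differed in nearly the same members as Model skin, with 62 of 93 higher (50.1% of all tested genes were higher) and 28 lower (43.1% of all), by edgeR's quasi-likelihood test. Inhbb, Igf1r and Igfbp4 did not pass, and the M+NSPCC1 and Ctrl libraries did not overlap for 90 members (96.8%), against 90.0% of all genes. Both comparisons share the Ctrl libraries, so their values are given side by side and not as separate support. In M+NSPCC1 and in Model against Ctrl the log2 fold changes were 5.14 and 5.20 for Lef1, 5.91 and 6.61 for Fgf5, 1.32 and 1.54 for Bmp7, 1.90 and 1.18 for Ptch1, 1.47 and 0.86 for Hey2, 1.52 and 1.03 for Axin2, and -1.99 and -2.28 for Igfbp5. Axin2, whose Model libraries overlapped those of Ctrl, had M+NSPCC1 libraries that were all above them (SE 0.43, edgeR adjusted p = 0.00535 against Ctrl). Bmpr2 passed narrowly against Ctrl in M+NSPCC1 (log2 fold change 0.23, edgeR adjusted p = 0.0271) and lost its call without Ctrl 3, without M+NSPCC1 1, 2 or 3 and, as did Smad4, with DESeq2's size factors (log2 fold changes 0.07 for Bmpr2 and 0.04 for Smad4). Inhbb passed without Model 2 or Model 3, Igf1r without Ctrl 1 (log2 fold change 0.31) and Igfbp4 without Ctrl 3 (0.35).

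The other genes of these pathways, taken from lists of known components, mostly rose in Model skin for the Wnt pathway and were mixed elsewhere. The counts stand beside 49.1% of all tested genes higher and 41.4% lower in Model against Ctrl skin, so that passing is not a mark of these lists. Of 35 tested Wnt components 31 rose, 3 fell (Dvl1, Pygo1 and Tle2) and 1, Pygo2, did not pass. Among those that rose, Ctnnb1, which encodes beta-catenin, had a log2 fold change of 1.12 (SE 0.09), Porcn and Wls, which equip Wnt proteins for release, 2.04 (SE 0.24) and 0.89 (SE 0.12), and the feedback inhibitors Nkd2, Rnf43 and Znrf3 3.16 (SE 0.22), 2.38 (SE 0.33) and 1.59 (SE 0.18). Vangl2 and Celsr1 of planar cell polarity rose by 2.60 and 2.32. Of 20 BMP and TGF-beta components 6 rose and 12 fell; Msx2 and Msx1, homeobox targets of BMP, and the decoy receptor Bambi rose by 6.74, 2.82 and 4.29 (Msx1 and Msx2 are also on the hair marker lists), and the antagonists Chrd, Chrdl1 and Nbl1 had log2 fold changes of -2.50, -2.35 and -1.70. Of 18 Notch components 6 rose, 7 fell and 5 did not pass, with Nrarp, a Notch target that dampens the signal, at 1.22 (SE 0.08) and Mfng, a glycosyltransferase that modifies Notch, at -2.06 (SE 0.35). Of 15 Hedgehog components 9 rose and 6 fell, with Smo at 0.83 (SE 0.06), the antagonist Hhip at 2.66 (SE 0.25) and the ligand Dhh at -2.30 (SE 0.33). Hhip is also on the dermal papilla marker list. Of 36 components of the FGF, EGF, PDGF and IGF routes 21 rose, 12 fell and 3 did not pass; the EGF receptor family ligands Tgfa, Areg and Nrg1 rose by 2.34, 2.53 and 5.87, Btc and Ereg had log2 fold changes of -2.54 and -0.64, and the feedback phosphatase Dusp6 rose by 1.25. In M+NSPCC1 against Model none of these components passed by edgeR's quasi-likelihood test.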

How the data were processed

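Bulk RNA-seq of 12 mouse skin libraries was used, 4 in each of the 3 groups that the sample titles give. RNA was taken with TRIzol and libraries were made with an mRNA kit, per the labels' protocols. HISAT2 2.2.1, RSEM 1.3.1, DESeq2 1.34.0 and the mm10 build are named in the submitters' processing notes. The authors deposited estimated counts and FPKM values per transcript; both were summed by gene ID, and no source used here gives the rule by which rows were chosen for these tables, so counts of changed genes hold within this selection only. Sums of the estimated counts were rounded to whole numbers; 51 of 94 members had sums that were not whole.

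edgeR 4.0.16 (R 4.3.3) with TMM scaling, its default filter on low counts and a quasi-likelihood fit over all 12 libraries gave the 3 comparisons, with Benjamini-Hochberg adjustment over 7638 genes and a threshold of 0.05. The fit was also run on simulated data with 200 changed genes, far fewer than passed in Model against Ctrl. That run therefore does not test the scaling under so wide a change. Alternatives were DESeq2 1.42.0, other scalings and filters, the highest transcript of each gene, 8 libraries alone, limma 3.58.1 on log2(FPKM + 1) and log2(FPKM + 0.1), a replicate block, and each library left out. The members and lists were chosen with earlier results of these data known. Genes named are, per role, the largest rise and fall among members past the threshold that averaged 1 CPM or more, the 6 smallest p in M+NSPCC1 against Model, and a fixed set of well known members; others given with values were chosen after those were seen. No source used here says whether counting used strand, and the exons of 27 members overlap another gene, a protein-coding one for 7 of them: Acvr2a, Bmp2k, Erbb2, Fgf22 and Gli1 on the opposite strand and Fgfr2 and Igf2 on the same strand. The interval of the Wnt8a count ratio and the limit of 3 counts cover counting error only, while the other intervals come from the edgeR fit over libraries. Some values of named members are not reported here.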

Additional observations from a re-analysis of the deposited data

Results flagged for a closer look

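Of 189 gene and group combinations examined among 63 named members, 16 had a library far from the other 3 of its group, where chance gives about 1 in 20. In M+NSPCC1 libraries, M+NSPCC1 1 was low for Bmpr1a (305 CPM, the others 355 to 361) and Lef1 (141, the others 200 to 211) and high for Fgf13 (5.41, the others 2.88 to 3.01). M+NSPCC1 2 was high for Igfbp6 (181 CPM, the others 80.5 to 94.2) and low for Wnt8a (0.927, the others 2.48 to 2.67), and M+NSPCC1 4 was high for Fgfr4 (2.93, the others 2.02 to 2.13).

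In Model libraries, Model 3 was low for Erbb3 (170 CPM, the others 216 to 223) and Rspo2 (3.17, the others 5.29 to 5.69) and high for Wnt2 (4.86, the others 1.95 to 2.37). Model 2 was high for Ptch1 (177 CPM, the others 96.4 to 107), and Model 4 held all Hey1 counts of the group (0.746 CPM). In Ctrl libraries, Ctrl 1 was high for Fgfr2 (49.3 CPM, the others 40.3 to 40.5) and low for Igf2 (21.3, the others 36.1 to 37.1). Ctrl 3 was low for Id4 (39 CPM, the others 48.8 to 50.7), high for Igf1 (302, the others 270 to 273) and alone in having Wnt8a (0.214).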

How the results depend on the processing

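The counts of members called in each direction stayed within 1.5 times in every alternative run, except that limma on log2(FPKM + 1) without a filter called 1 member, Hes5, higher in M+NSPCC1 than in Model, where edgeR called 0. Leaving out single libraries gave 62 to 64 higher and 27 to 28 lower members in Model against Ctrl, 61 to 63 higher and 28 lower in M+NSPCC1 against Ctrl, and 0 in M+NSPCC1 against Model. No called value changed sign. With DESeq2's size factors Axin1, Axin2, Bmpr2, Igf1r, Igfbp2 and Smad4 lost their calls in Model against Ctrl, and Bmpr2 and Smad4 in M+NSPCC1 against Ctrl; with whole-library depth Igfbp4 passed in both, and in M+NSPCC1 against Ctrl Igf1r and Inhbb passed and Pdgfrl did not (log2 fold change -0.42, edgeR adjusted p = 0.0559). Replicate numbers did not pair the libraries (correlations of same-numbered deviations from -0.274 to 0.15); with the number as a block, 63 members were higher and 28 lower in Model against Ctrl, 62 and 28 in M+NSPCC1 against Ctrl, and 0 differed in M+NSPCC1 against Model, while all genes gave 3654 higher and 3169 lower in Model against Ctrl. Low counts limit Hes5, Hey1, Wnt8a and Fgf9, and the cause of the changed calls was not tested.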
